A study of Mus musculus with 6 samples.

Results

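Mouse peritoneal macrophages given SGA360, which binds the aryl hydrocarbon receptor (AHR), and then LPS were compared with macrophages given vehicle, with the question of which part of the LPS programme remains when the ligand is present. The comparison uses 4 of the 6 libraries of the series, the 2 labelled LPS_SGA and the 2 labelled Veh; the 2 LPS libraries serve as the measure of the programme without the ligand. All libraries hold polyA RNA of cultured peritoneal macrophages from wild-type male C57BL6/J mice of 6 to 8 weeks. Vehicle cultures had vehicle for 5 h, LPS cultures had LPS at 10 ng/ml for 4 h, and SGA360+LPS cultures had SGA360 at 10 µM for 1 h and then LPS at 10 ng/ml for 4 h. No group had SGA360 without LPS, and for the LPS group no pretreatment with vehicle is stated.

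LPS is a cell-wall component of Gram-negative bacteria that macrophages sense through CD14, MD-2 and Toll-like receptor 4 (TLR4). The MyD88 arm of the receptor activates NF-kB and AP-1 and so the genes of cytokines, chemokines and prostaglandin synthesis, while the TRIF arm activates IRF3, interferon beta and, through the interferon receptor and STAT proteins, the interferon-stimulated genes. AHR is a transcription factor of the bHLH-PAS family that waits in the cytoplasm with HSP90 and, once a ligand is bound, pairs with ARNT at a DNA core motif and switches on genes such as Cyp1a1. SGA360 is described in the field as a selective AHR modulator, a ligand studied for its effect on inflammatory genes rather than on those xenobiotic-metabolism genes.

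Whether 2 libraries of 1 group stem from different mice or dishes is not stated, so each p-value reflects only how these libraries vary, which may be technical. Library totals ran from 7726973 to 9529817 counts. Vehicle replicate 1 stood apart, with a count for 10001 symbols against 12282 to 12643 in the other libraries and 4.92% of its counts on the ribosomal RNA gene Rn45s against 0.22% to 0.684%. Levels are in CPM, that is counts divided by TMM-scaled library sizes, and allow no comparison between genes, since they are not per length. They are given for replicates 1 and 2 in that order, and changes are on the log2 scale with their standard error (SE) from edgeR's quasi-likelihood test with Benjamini-Hochberg adjustment. Of 9389 genes tested, 3107 (33.1%) passed an adjusted p of 0.05 between SGA360+LPS and vehicle, 1678 higher (17.9%) and 1429 lower (15.2%). More than 2-fold, 610 genes were higher (6.50%) and 480 lower (5.11%). In LPS against vehicle, which shares the vehicle libraries, 1820 were higher (19.4%) and 1593 lower (17.0%).

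Part of the response reached levels with the ligand that were within 1.5-fold of those with LPS alone. It held the induced MHC class I genes, 6 of 9 induced interferon-inducible GTPases and 11 of 14 induced NF-kB genes. The chemokines Ccl5 and Cxcl10 and the enzyme gene Irg1 were also within that range. The share over all induced genes, 55.2%, was below the 61.6% over all genes tested, so being within range does not set the induced genes apart. Il1b, Il1a, Ptgs2, Cxcl1, Cxcl2 and Ier3 rose above vehicle but were called lower than with LPS alone. The programme was taken as the genes that differed from vehicle by more than 2-fold in the mean of both LPS-treated groups, which gives the groups with and without ligand equal weight: 658 genes induced (7.01% of those tested) and 597 repressed (6.36%). A gene was counted as kept in full when the 95% interval of its log2 difference between SGA360+LPS and LPS lay within 0.585 of 0, which is 1.5-fold, and the difference was not called. By that rule 363 of 658 induced genes (55.2%) were kept, 6 were called lower, 0 were called higher (12 at an unadjusted p of 0.05, against 50 lower; DESeq2 called 1 higher) and 289 (43.9%) were not resolved. Over all genes tested 61.6% met the same rule, and 7 genes (0.0746%) were called between the ligand and LPS alone. The intervals are pointwise, with no adjustment for the number of genes.

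Not resolved means that the interval was too wide or reached past 1.5-fold, not that the gene changed. Induced genes kept in full had a median level of 154 CPM and a median interval half-width of 0.22, against 6.68 CPM and 0.86 for those not resolved. The share kept was 238 of 353 (67.4%) for genes induced 2 to 4-fold, 93 of 207 (44.9%) for 4 to 16-fold and 32 of 98 (32.7%) for more than 16-fold, and 5 of the 6 genes called lower were in the last class. The median difference between ligand and LPS alone was −0.07 over the 658 induced genes and 0.0012 over all genes tested, and the median change against vehicle was 1.86 with the ligand and 1.92 with LPS alone. Among kept genes, 33 of the 363 had intervals wholly below 0 and 7 wholly above, with estimates from −0.40 to 0.30. All 363 were called higher than vehicle, and their SGA360+LPS libraries did not overlap the vehicle libraries, as was the case for 6090 of all 9389 genes (64.9%). The choice of genes nearly fixes both results. Kept genes had to be over 2-fold above vehicle in the mean of both LPS-treated groups and close to LPS alone. Just inside the 1.5-fold margin lay Zbp1 (interval 0.02 to 0.58), Mob3b (−0.21 to 0.58) and Cxcl3 (−0.58 to −0.23), and just outside it Samsn1, Zmynd15 and Rsad2, whose intervals ended at −0.586, 0.586 and 0.587.

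**Figure D1:**
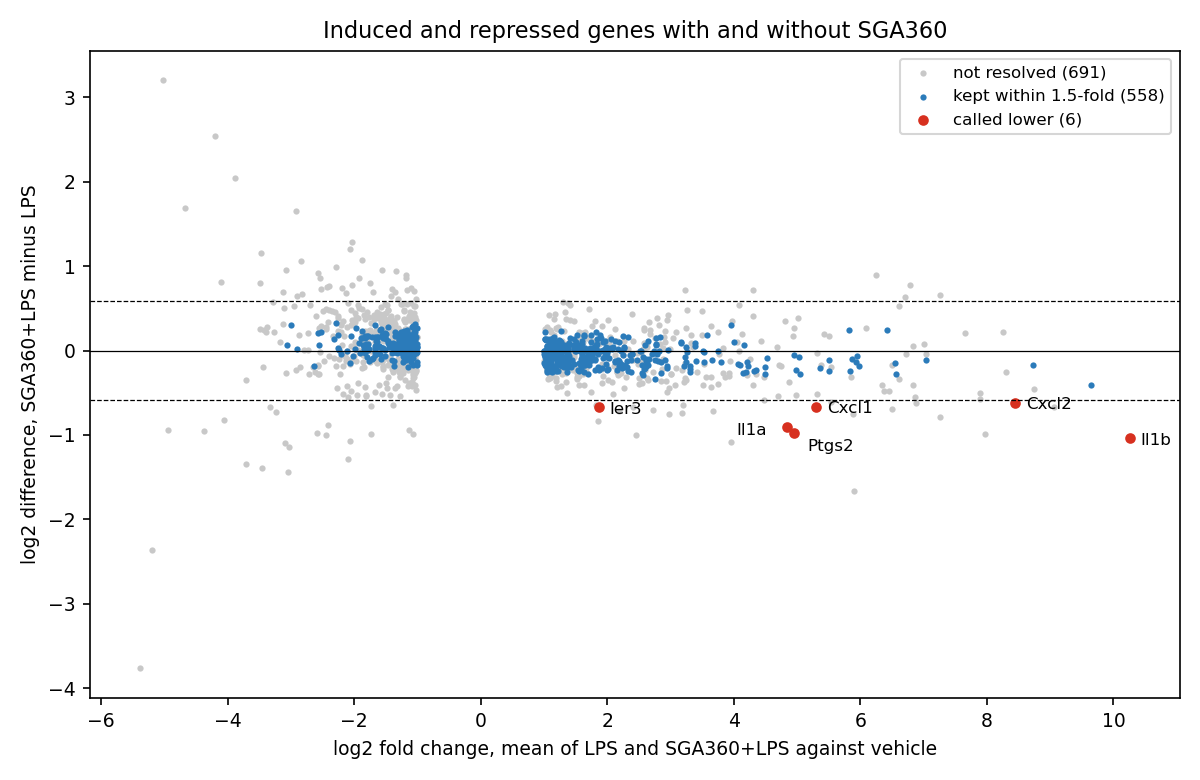
Each point is 1 of the 1255 induced or repressed genes, with its log2 change against vehicle averaged over both LPS-treated groups on the x axis and its log2 difference between SGA360+LPS and LPS on the y axis; dashed lines mark 1.5-fold. By the rule that defines them, the 558 genes kept in full lie in a narrow band around 0 at both ends. The 6 genes called lower (Il1b, Ptgs2, Il1a, Ier3, Cxcl1 and Cxcl2) lie below it on the induced side.

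The DNA just upstream of the 3 interferon genes with the largest kept rises is shown beside that of the 3 genes with the largest called reduction. The kept genes were taken from the interferon lists, so the runs do not stand for all kept genes (the interferon core defined below is in 11.7% of the induced kept genes that have a promoter sequence), and larger kept rises such as Cxcl3 and Irg1 are not shown. Each run is the 250 bases before the RefSeq start site in GRCm38.p6 (the mm10 assembly), 5′ to 3′ on the gene's own strand. Capitals mark matches to 4 motifs searched on both strands: an interferon response core (GAAA, any 2 bases, GAAA), a 10-letter NF-kB consensus, GCGTG (the AHR core) and TGANTCA (AP-1). Gbp5, kept, encodes an interferon-inducible guanylate-binding protein (plus strand, chr3:142496684-142496933; gene from 142496934 to 142522344). Ifit1, kept, encodes an antiviral RNA-binding protein (plus strand, chr19:34640639-34640888; gene from 34640889 to 34650009). Isg15, kept, encodes a ubiquitin-like protein (minus strand, chr4:156200819-156201068; gene from 156199424 to 156200818).
Gbp5: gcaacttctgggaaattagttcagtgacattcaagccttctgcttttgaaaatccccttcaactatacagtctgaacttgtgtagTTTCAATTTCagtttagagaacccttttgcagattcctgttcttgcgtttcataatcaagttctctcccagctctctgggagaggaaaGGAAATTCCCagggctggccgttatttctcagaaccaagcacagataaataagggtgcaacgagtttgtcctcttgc
Ifit1: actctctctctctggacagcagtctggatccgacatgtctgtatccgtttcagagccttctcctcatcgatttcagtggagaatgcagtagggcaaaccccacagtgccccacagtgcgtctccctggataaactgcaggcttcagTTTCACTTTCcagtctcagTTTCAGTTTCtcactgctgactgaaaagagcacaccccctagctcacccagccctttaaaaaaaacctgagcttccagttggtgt
Isg15: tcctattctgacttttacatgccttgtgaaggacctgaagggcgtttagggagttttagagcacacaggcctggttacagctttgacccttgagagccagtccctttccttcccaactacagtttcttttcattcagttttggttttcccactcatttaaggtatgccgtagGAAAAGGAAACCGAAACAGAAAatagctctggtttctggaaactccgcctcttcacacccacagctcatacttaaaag
Il1b, lower, encodes interleukin 1 beta (minus strand, chr2:129371140-129371389; gene from 129364578 to 129371139, overlapped by the antisense gene Il1bos, whose reads cannot be told apart without strand). Ptgs2, lower, encodes cyclooxygenase 2 (plus strand, chr1:150099781-150100030; gene from 150100031 to 150108234). Il1a, lower, encodes interleukin 1 alpha (minus strand, chr2:129309973-129310222; gene from 129299610 to 129309972).
Il1b: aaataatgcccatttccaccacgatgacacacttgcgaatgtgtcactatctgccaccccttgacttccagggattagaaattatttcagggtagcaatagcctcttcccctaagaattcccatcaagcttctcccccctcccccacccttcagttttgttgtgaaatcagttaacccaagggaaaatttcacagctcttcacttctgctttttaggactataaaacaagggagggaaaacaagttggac
Ptgs2: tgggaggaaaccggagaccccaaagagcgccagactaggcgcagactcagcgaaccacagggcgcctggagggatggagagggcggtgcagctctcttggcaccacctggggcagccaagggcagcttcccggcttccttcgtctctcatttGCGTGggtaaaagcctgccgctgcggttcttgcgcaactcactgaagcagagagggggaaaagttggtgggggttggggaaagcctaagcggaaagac
Il1a: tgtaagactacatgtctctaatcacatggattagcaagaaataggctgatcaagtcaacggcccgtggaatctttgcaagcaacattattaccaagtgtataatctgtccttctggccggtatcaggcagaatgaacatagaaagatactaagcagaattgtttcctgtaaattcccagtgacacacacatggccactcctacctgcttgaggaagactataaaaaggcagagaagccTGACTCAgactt
The interferon core matched 1 time in the Gbp5 run, 2 times in Ifit1 and 3 times in overlapping register in Isg15, and in none of the 3 reduced genes. The NF-kB consensus matched in Gbp5, from 77 to 68 bases before the start, AP-1 in Il1a, from 12 to 6 bases before it, and the AHR core in Ptgs2. In Il1b none of the 4 motifs matched in this window, which says only that these letters are not there.

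Over larger sets, the interferon core was in 833 of 27025 mouse promoters of this length (3.08%), in 2.82% of tested genes with a promoter in the table, in 32 of 274 induced genes kept in full (11.7%) and in 0 of the 6 called lower. Of the 18 kept members of the interferon and GTPase lists, 13 had a promoter in the table and 11 of these (84.6%) held the core. The NF-kB consensus was in 7.15% of all promoters, 9.32% of tested genes, 19% of kept genes and 3 of the 6 genes called lower. The AHR core was in 28.1% of all promoters, 46.4% of tested genes, 39.1% of kept genes and 2 of the 6, and the AP-1 motif in 6.81%, 4.41%, 9.85% and 1 of the 6. Among induced genes not resolved, the interferon core was in 7.51%, the NF-kB consensus in 13.1%, the AHR core in 30% and the AP-1 motif in 9.39%. The 6 genes called lower are too few for their shares to be set against those of the other sets. A match describes letters and shows no bound factor.

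The levels in each library show how the classes differ. Il1b, the inflammasome-processed cytokine, had 0 and 1.35 CPM with vehicle, 1297 and 1225 with LPS, and 653 and 573 with SGA360+LPS. Its SGA360+LPS libraries were far above vehicle (log2 change 9.74, SE 0.29, adjusted p = 3.53e-09) and below both LPS libraries (−1.04, interval −1.36 to −0.72, adjusted p = 0.0393), at 48.6% of the LPS level. Irg1, which makes itaconate, had 10.5 and 10.1 CPM with vehicle, 4482 and 4775 with LPS, and 4019 and 4171 with SGA360+LPS. Its SGA360+LPS libraries were just under the LPS libraries (−0.18, interval −0.31 to −0.04) and rose by 8.63 (SE 0.09) against vehicle. Tnfrsf1b, the second TNF receptor and a source of soluble decoy receptor, had 716 and 746 CPM with vehicle, 4994 and 5302 with LPS and 4962 and 5334 with SGA360+LPS, so that the LPS-treated libraries of both kinds overlapped.

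**Figure D2:**
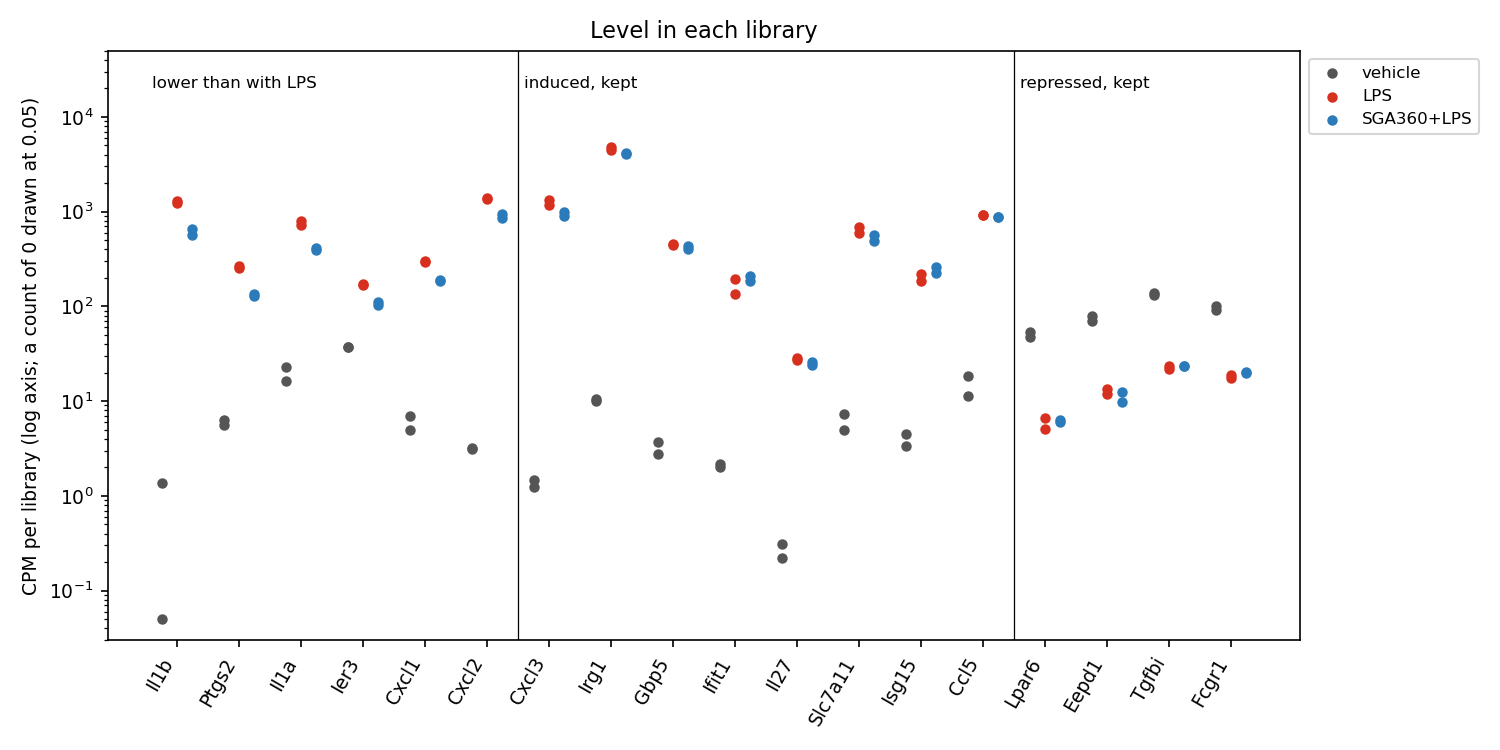
Each point is the level of a gene in 1 library in CPM on a log axis, for vehicle, LPS and SGA360+LPS, with genes called lower than with LPS on the left, 8 induced genes kept in full in the middle and 4 repressed genes kept in full on the right; a count of 0 (Il1b, vehicle replicate 1) is drawn at 0.05. With SGA360 the genes on the left stop below their LPS points but stay above vehicle. Those in the middle and on the right lie closer to the LPS points, as the rule for kept genes requires. Even so, Cxcl3, Irg1, Gbp5, Il27, Slc7a11 and Ccl5 have both SGA360+LPS points below both LPS points. Isg15 and, on the right, Fcgr1 have both above.

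Genes called lower with the ligand were the 6 below, and each still rose against vehicle. Ptgs2, the inducible enzyme of prostaglandin synthesis, had 6.26 and 5.62 CPM with vehicle, 253 and 264 with LPS, and 136 and 128 with SGA360+LPS (difference from LPS −0.97, interval −1.15 to −0.80, adjusted p = 0.00223). Il1a had 22.7 and 16.2, then 719 and 794, then 397 and 412 CPM (−0.90, interval −1.12 to −0.68, adjusted p = 0.00961). Against vehicle these 2 rose by 4.47 (SE 0.11) and 4.38 (SE 0.13) with the ligand and by 5.44 and 5.29 with LPS alone. Cxcl1 and Cxcl2, which attract neutrophils, stood at 62.9% and 65.1% of their LPS levels, and the immediate early survival gene Ier3 at 62.7%. Their rises against vehicle with the ligand were 4.97, 8.14 and 1.53. DESeq2 did not call Il1b between these groups (log2 difference −1.04, adjusted p of 1), and edgeR did not at an adjusted p under 0.01. With a block for replicate number in the edgeR model, the calls of Il1b and Cxcl1 were lost. The directions held without any 1 library (Il1b −1.14 to −0.95, Ptgs2 −1.01 to −0.93). The calls did not: 2 remained without LPS replicate 1 (Ptgs2 and Il1a) and 0 without LPS replicate 2 or either SGA360+LPS library, where a group has 1 library. In a fit on the LPS-treated libraries alone, added after the data were seen, 12 of 9094 genes were called: these 6, Cyp1b1, Ccl3, Ccl4, Cxcl3 and Il12b lower, and Mfsd12 higher. Cxcl3 is thus called lower there, and with DESeq2 (adjusted p = 0.000175), although the main rule counts it as kept. Without vehicle replicate 1 there were 15 calls, among them Ifit2 as higher.

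Few cytokine genes could be called kept. Of 20 listed genes, 13 could be tested, and 11 of these were higher than vehicle and 0 lower, with a median change of 5.51 (all genes tested, −0.0066). Of the 12 induced members only Il27, a subunit of interleukin 27, was kept in full, Il1b and Il1a were lower, and 9 were not resolved. Il27 had 0.224 and 0.312 CPM with vehicle, 28.6 and 27.2 with LPS and 26.2 and 24.2 with SGA360+LPS, a rise of 6.47 (SE 0.29). Il12b, the subunit shared by interleukins 12 and 23, had 0.559 and 0.937, then 219 and 217, then 155 and 152 CPM, and so rose by 7.64 (SE 0.16), with an interval against LPS of −0.68 to −0.33 that reached past the margin and an adjusted p of 0.0998. In all, 12 of the 13 tested cytokines were below LPS alone in estimate, against 49.6% of all genes. Of these, 5 had an interval wholly below 0 (1.43% of all genes had such an interval), and the list's median difference was −0.51. Genes of a list share the same 4 LPS-treated libraries, so a common sign, here and in the lists below, is not a set of separate observations. Without vehicle replicate 1, 3 of 12 were kept and 3 lower.

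Several classical cytokines had too few reads to place. Tnf had 0 counts in both vehicle libraries, 16 and 19 with LPS and 8 and 15 with SGA360+LPS. This is at least 4.16-fold higher than vehicle with the ligand, against a floor of 3 counts per library, and its call was lost without SGA360+LPS replicate 2. Csf2, a growth factor for granulocytes and macrophages, went from 0 counts to 22 and 26 with LPS and 12 and 16 with the ligand, at least 5.12-fold above vehicle on the same floor. Il6 had 0 or 1 count and Ifnb1 0 counts but for 1 in SGA360+LPS replicate 1. Il10 had 14, 3, 4, 4, 2 and 1 counts and Nos2, the inducible nitric oxide synthase, 0, 0, 6, 8, 4 and 3 over vehicle, LPS and SGA360+LPS in order, and none of these 4 was tested. Tnf, Il6 and Nos2 have several transcript rows in the deposited table, and such symbols held unusually few reads, so their levels are uncertain.

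Chemokines split more evenly. Of 19 tested members, 15 were higher than vehicle (median 3.18) and 1, Ccl6, was lower, and of the 15 induced, 9 were kept in full, 2 were lower and 4 were not resolved. Ccl5, which attracts T cells and monocytes, had 18.2 and 11.2 CPM with vehicle, 912 and 928 with LPS and 876 and 884 with SGA360+LPS (rise 5.91, SE 0.15; interval against LPS −0.31 to 0.18). Cxcl10, an interferon-responsive T cell attractant, had 1.79 and 3.33, then 163 and 170, then 158 and 146 CPM. Beside these 2, the neutrophil attractant gene Cxcl3 had 1334 and 1183 CPM with LPS and 999 and 905 with the ligand, which is 75.7% of the LPS level, from 1.23 and 1.46 with vehicle. Ccl3, a ligand of CCR1, had 58.1 and 43.9, then 1421 and 1364, then 944 and 913 CPM, at 66.7% of the LPS level and with adjusted p = 0.133 in the main comparison. Of all 19, 18 were below LPS alone in estimate, against 49.6% of all genes, and 7 had an interval wholly below 0, against 1.43%. In the fit on the LPS-treated libraries alone, Cxcl1, Cxcl2, Cxcl3, Ccl3 and Ccl4 were called lower.

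NF-kB components and their feedback inhibitors rose in all 15 tested members (median 2.10). Of the 14 induced, 11 were kept, Ier3 was lower and Tnfaip3 and Nfkb2, both with several transcript rows, were not resolved. In estimate 14 of the 15 were below LPS alone, 4 with an interval wholly below 0 (26.7%, against 1.43% of all genes). Nfkbia, the inhibitor of NF-kB that NF-kB itself induces, had 66.6 and 75.9 CPM with vehicle, 759 and 765 with LPS and 696 and 615 with SGA360+LPS (rise 3.20, SE 0.09). Traf1 and Tnip3, an adaptor and an inhibitor of the pathway, rose by 4.02 and 4.19 with the ligand and by 4.19 and 4.43 without. Of the AP-1 and immediate early genes, 5 of 13 were higher and 4 lower (median 0.58), with Junb at 1.47 and Fos at −1.70. Socs3, which limits cytokine signalling, rose by 2.58 and was kept in full, with an interval of −0.54 to −0.14; with no filter on low counts it was called lower than with LPS alone (adjusted p = 0.0139).

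Effector genes that act on microbes and tissue rose in 18 of 19 tested (median 2.12), and 13 of the 18 induced were kept with 5 not resolved. In estimate 16 of the 19 were below LPS alone, 4 with an interval wholly below 0 (21.1%). The cystine transporter gene Slc7a11 had 4.92 and 7.28 CPM with vehicle, 594 and 696 with LPS and 493 and 566 with SGA360+LPS. Saa3, an acute-phase serum amyloid, had 2751 and 2349, then 10250 and 9081, then 8655 and 7842 CPM (rise 1.69, SE 0.09), and the SGA360+LPS values lie under both LPS values. Lcn2, an iron-siderophore scavenger, rose by 5.38 and stood at 84.7% of its LPS level. Of the enzymes of prostaglandin synthesis, Ptges, the prostaglandin E synthase that acts after Ptgs2, had 13.6 and 14.7 CPM with vehicle, 822 and 884 with LPS and 773 and 821 with SGA360+LPS, and was kept (−0.10, interval −0.25 to 0.05), while Ptgs2 was called lower; whether these 2 genes differ from each other in this was not tested. Hpgds, the prostaglandin D synthase of macrophages, fell by 2.71 against vehicle, and Ptgs1, the constitutive cyclooxygenase, fell by 0.88.

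Interferon-stimulated genes lay mostly slightly above their LPS levels in estimate. Of 23 tested, 22 were higher than vehicle and 0 lower, with a median change of 2.98. Of the 22 induced, 12 were kept, 0 were lower and 10 were not resolved. Ifit1 had 2.01 and 2.19 CPM with vehicle, 136 and 197 with LPS and 185 and 210 with SGA360+LPS (rise 6.54, SE 0.24). Isg15 had 3.35 and 4.47, then 186 and 221, then 258 and 224 CPM (rise 5.93, SE 0.16; interval against LPS 0.01 to 0.48). Rsad2, the antiviral protein viperin, had 13.9 and 11.9, then 346 and 381, then 511 and 441 CPM, and both of its SGA360+LPS libraries were above both LPS libraries, with an interval of 0.19 to 0.59. In estimate 22 of the 23 genes were above LPS alone, against 50.4% of all genes, and 6 had an interval wholly above 0, against 1.51%. The median difference was 0.19, and no member was called by edgeR in the main comparison. Rsad2 was called higher by DESeq2, by edgeR with no filter on low counts and by edgeR without vehicle replicate 2. These genes share 4 libraries, so their common sign is not 23 separate observations.

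The interferon-inducible GTPases, which attack pathogen vacuoles, were higher in 9 of 10 tested (median 1.94) and kept in 6 of 9 induced. Gbp5 had 2.79 and 3.75 CPM with vehicle, 446 and 453 with LPS and 433 and 402 with SGA360+LPS, a rise of 6.98 (SE 0.12). Gbp2 had 16.9 and 23.4, then 650 and 709, then 633 and 655 CPM. MHC class I genes, which carry peptides to T cells, were higher in 11 of 13, and all 6 induced members were kept: Nlrc5, the transactivator of the pathway, rose by 2.19 and Tap2, a peptide transporter subunit, by 1.79. Among MHC class II and costimulatory genes 5 of 10 were higher and 1 lower, and the 3 induced (Icosl, Cd274 and Cd80) were all kept. Cd274, which encodes the T cell inhibitor PD-L1, rose by 2.38.

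**Figure D3:**
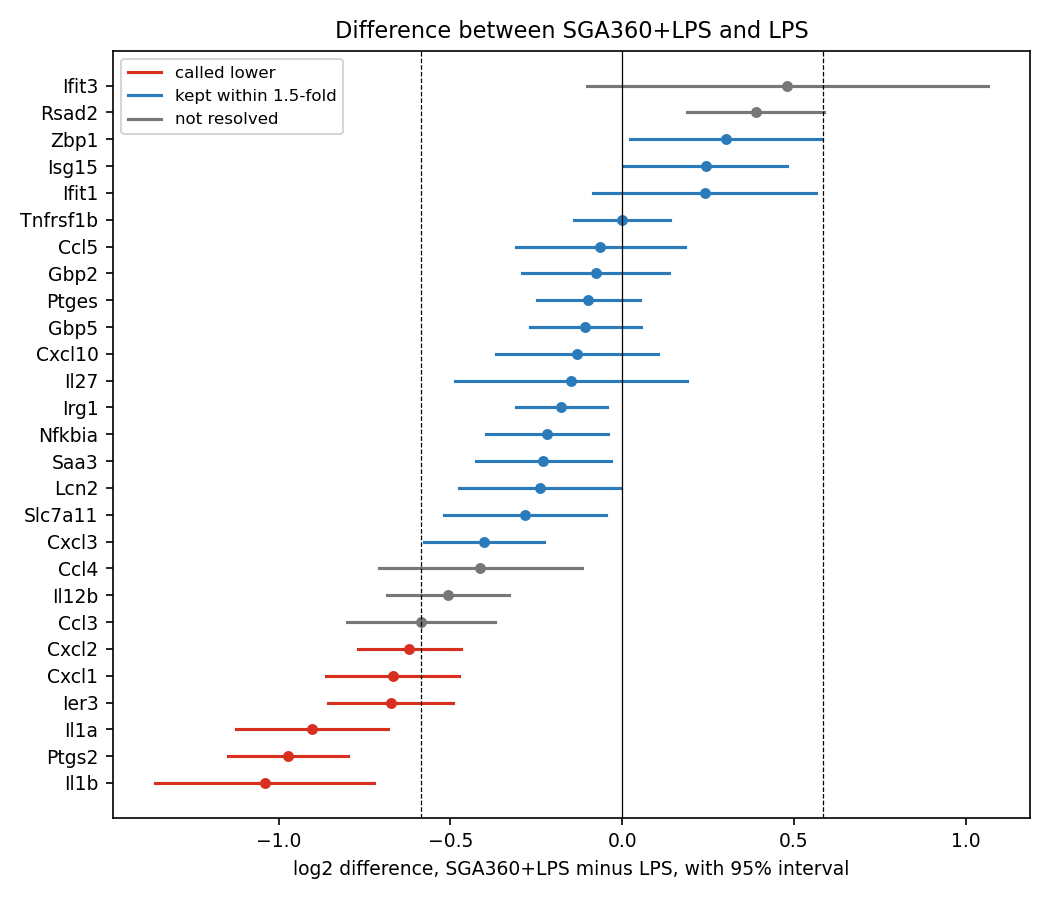
Points are log2 differences between SGA360+LPS and LPS with 95% intervals for 27 induced genes, with the 1.5-fold margin dashed; red genes were called lower, blue genes were kept in full and grey genes were not resolved. Il1b, Ptgs2 and Il1a lie at −1.04, −0.97 and −0.90, Ier3, Cxcl1 and Cxcl2 at −0.67, −0.67 and −0.62, Ccl3 at −0.58, Irg1, Ccl5 and Cxcl10 between −0.18 and −0.06, and the interferon-stimulated genes Isg15, Zbp1, Rsad2 and Ifit3 above 0.

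Receptors for microbial products rose and fell. Of 16 Toll-like receptor and TLR4 pathway genes tested, 10 were higher and 3 lower, and 6 of 7 induced were kept. Cd14, the LPS co-receptor, had 160 and 176 CPM with vehicle, 1279 and 1367 with LPS and 1114 and 1093 with SGA360+LPS. Its interval lay below 0 (−0.41 to −0.11), and DESeq2, unlike edgeR, called it lower than with LPS alone (adjusted p = 0.0489). Tlr2 rose by 3.19, and Tlr4 itself fell by 0.71 with the ligand and 0.65 without. Of 11 other pattern recognition and inflammasome genes, 7 were higher and 2 lower, and 6 of 7 induced were kept. Clec4e, a receptor for mycobacterial glycolipid, had 69.5 and 72.3, then 4111 and 5428, then 3784 and 4642 CPM, with overlapping LPS-treated libraries. Nlrp3, the inflammasome sensor that leads to interleukin 1 beta processing, rose by 4.02 and stood at 83.1% of its LPS level (interval −0.44 to −0.09), while Casp1, the processing enzyme, rose by 1.13.

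Chemoattractant receptors moved both ways. Of 17 tested, 8 were higher and 8 lower. The formyl peptide receptor genes Fpr2 and Fpr1 rose by 5.72 and 5.26, the fatty acid receptor Gpr84 by 4.87 and the adenosine receptor Adora2a by 3.99, and all 4 were kept. Ccr1, a receptor for inflammatory chemokines, fell by 2.05 and the nucleotide receptor gene P2ry6 by 2.22, and both falls were kept in full. Cxcr4, the receptor for CXCL12, had 130 and 139, then 10.4 and 12, then 15.6 and 17.8 CPM: it fell by 3.002 with the ligand and 3.58 without, with an interval of 0.24 to 0.90 that was not called. Cx3cr1, the fractalkine receptor, had 41.7 and 40.1, then 3.59 and 3.72, then 6.6 and 5.27 CPM, and so fell by 2.79 with the ligand. In both Cxcr4 and Cx3cr1 the SGA360+LPS libraries were above the LPS libraries and far below vehicle. Of 6 regulators of G protein signalling, which shut off such receptors, 5 fell, with Rgs2 lowest at −3.16, and 1, Rgs16, rose by 1.11; its call was lost without any 1 of the 4 LPS-treated libraries (log2 change 1.05 to 1.21 without any 1 library).

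**Figure D4:**
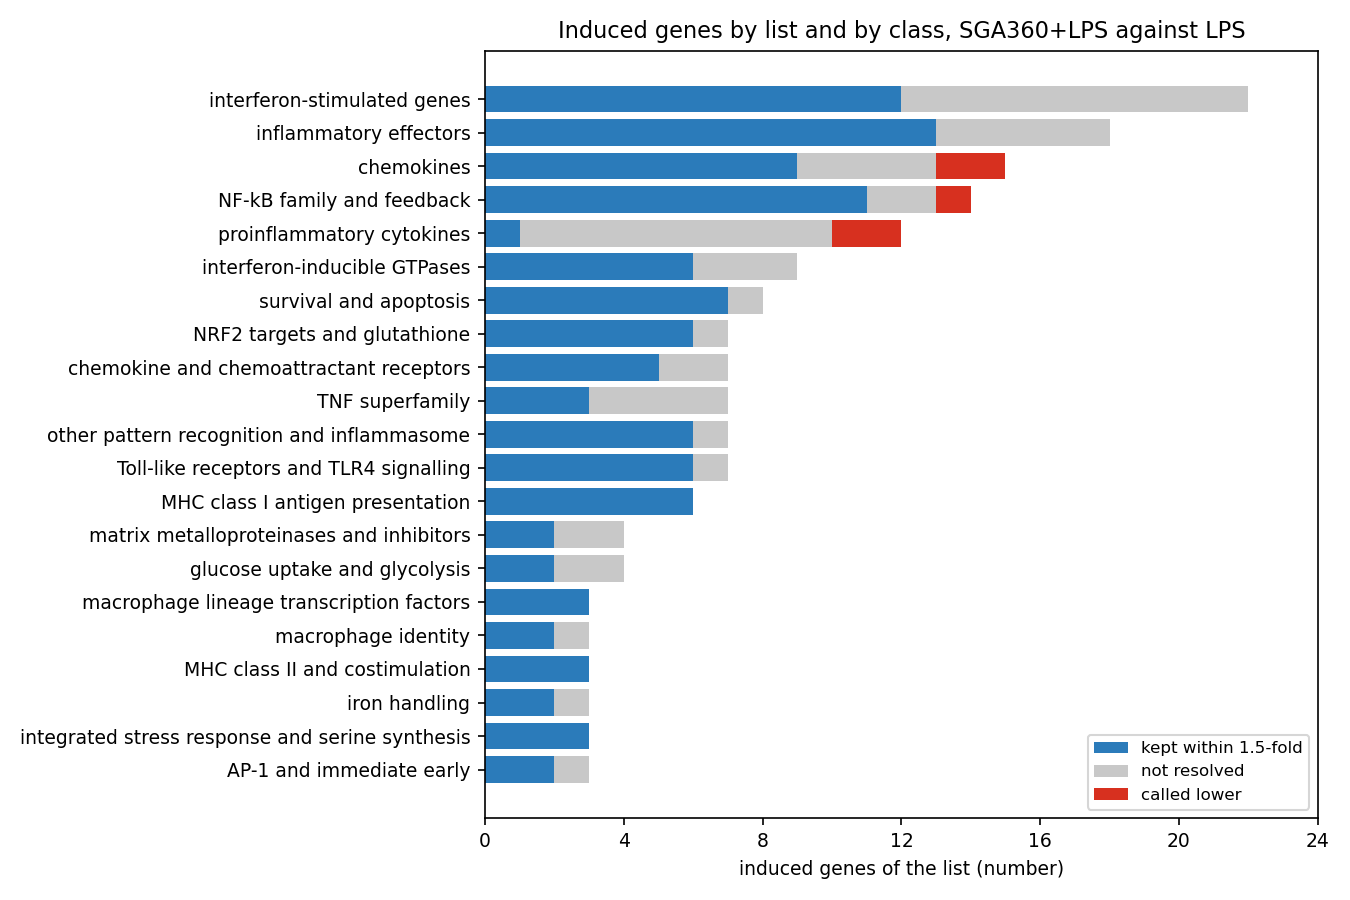
Bars count the induced genes of each list with at least 3 such genes, split into kept within 1.5-fold (blue), not resolved (grey) and called lower (red) in SGA360+LPS against LPS. Proinflammatory cytokines have 1 kept gene of 12, with 9 not resolved, against 12 of 22 kept for interferon-stimulated genes and 13 of 18 for inflammatory effectors. Over all induced genes 55.2% were kept, and 61.6% of all genes tested met the same rule. Red appears only in cytokines, chemokines and NF-kB genes among the lists drawn.

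The repressed programme had 597 genes, of which 195 (32.7%) were kept in full, 0 were called different by edgeR, DESeq2 or limma-voom, and 402 (67.3%) were not resolved. At an unadjusted p of 0.05, 2 were lower and 36 higher than with LPS alone. The median level was 33.1 CPM in kept genes and 3.33 in those not resolved. The median change was −1.41 with the ligand and −1.52 with LPS alone, and the median difference was 0.10. Of the 195 kept, 17 had an interval wholly above 0 and 0 wholly below. The share kept was 178 of 461 for falls of 2 to 4-fold and 17 of 127 for falls of 4 to 16-fold, and none of the 9 larger ones was kept.

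Several genes known from resident or alternatively activated macrophages fell to levels within 1.5-fold of those with LPS alone. Arg1, arginase 1, had 787 and 783 CPM with vehicle, 167 and 159 with LPS and 164 and 169 with SGA360+LPS, with overlapping LPS-treated libraries and a fall of 2.24 (SE 0.07). Tgfbi, a TGF-beta-induced matrix protein, had 130 and 140, then 23.3 and 21.6, then 23.2 and 23.8 CPM (fall of 2.52, SE 0.11). Both were kept in full, as were Mertk (−1.96), a receptor for apoptotic cells, and its bridging ligand Gas6 (−1.82). With LPS alone Mertk and Gas6 changed by −2.14 and −1.97, and for each gene both SGA360+LPS libraries lay above both LPS libraries. In all, 10 of 18 genes of alternative activation and efferocytosis were lower and 5 higher (median −0.50), and all 4 repressed members were kept. Of the Fc receptors for antibody, Fcgr1 and Fcgr3 fell by 2.25 and 1.68 with the ligand and by 2.39 and 1.66 with LPS alone, and were kept. Lysosomal genes were lower in 11 of 16 and higher in 2, by smaller steps (median −0.30), with the V-ATPase subunit Atp6v0d2 at −1.21 and the subunit Atp6v1a at −0.62.

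The largest falls against vehicle, among genes with a mean of at least 5 CPM, mostly ended at a few CPM. Abcg3 had 19.6 and 23.2 CPM with vehicle, 1.86 and 1.53 with LPS and 0.508 and 1.34 with SGA360+LPS (−4.48, SE 0.37). Slc46a3, a solute carrier, had 28.8 and 38.2, then 1.86 and 1.09, then 2.41 and 2.69 CPM (−3.71, SE 0.26). Nxpe5, Nat8l, Hmga2-ps1, the peroxisomal transporter Abcd2, the ubiquitin ligase Fbxo32, Rgs2, the histidine ammonia-lyase Hal, Ppfia4 and Cxcr4 followed, with Nxpe5 at −3.54 and Cxcr4 at −3.002. None of these 11 was resolved within 1.5-fold. Among the largest falls that were kept were Lpar6, a lysophosphatidic acid receptor (−3.04), Eepd1 (−2.73), Tgfbi, the lysosomal sulfatase Sgsh (−2.48), the lipase Daglb (−2.42) and Fcgr1.

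Few target genes of the ligand's receptor could be read. Cyp1a1, Ahrr and Ahr have several transcript rows and were listed at 0 in all libraries, so they give no reading. Cyp1b1, a cytochrome P450 and AHR target, had 336 and 325 CPM with vehicle, 694 and 756 with LPS and 472 and 475 with SGA360+LPS. It rose by 0.52 (SE 0.07) with the ligand and by 1.14 without, and it was called between the LPS-treated groups (−0.61, interval −0.76 to −0.47, adjusted p = 0.00961). That call was lost without LPS replicate 2 or either SGA360+LPS library, at −0.68 to −0.55 without any 1 library. No other gene outside the programme was called. Cyp1b1 was outside it because its mean rise over both LPS-treated groups was under 2-fold. With the programme taken from LPS against vehicle, Cyp1b1 was induced, and 7 induced genes were called between the LPS-treated groups. Tiparp, a further target, had 81 and 66.4, then 77.3 and 96.3, then 77.5 and 91.9 CPM, with no call. Nqo1 was at 0.60 (SE 0.33, adjusted p = 0.199) and Lpcat2 rose by 1.90 and was kept. Of 6 targets tested, 3 were higher than vehicle and 0 lower (all genes tested, 17.9% and 15.2%). Their median change was 0.56 with the ligand and 0.71 with LPS alone, and 5 of the 6 were below LPS alone in estimate. Of 4 genes of the receptor complex 3 were higher, the HSP90 genes Hsp90aa1 and Hsp90ab1 by 0.43 and 0.37 and the co-chaperone Ptges3 by 0.32. The Ptges3 call was lost at an adjusted p under 0.01, and its interval against LPS was −0.37 to −0.02. Arnt2 was lower at −0.85, a call lost with DESeq2 (adjusted p = 0.0567), at an adjusted p under 0.01 and without SGA360+LPS replicate 2 (−0.62).

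Metabolic and stress lists differed in their counts, to be read against the 17.9% higher and 15.2% lower of all genes. NRF2 targets, which make antioxidants, were higher in 12 of 20 and lower in 3 (median 0.67), with 6 of 7 induced kept. Hmox1, haem oxygenase 1, had 657 and 651 CPM with vehicle, 1254 and 1261 with LPS and 1357 and 1404 with SGA360+LPS, so that both SGA360+LPS libraries were above both LPS libraries by a small step (interval 0.01 to 0.26). Glycolysis genes were higher in 5 of 12, with Slc2a1, a glucose transporter, at 1.33 and Hk2, a hexokinase, at 1.15, while TCA cycle genes were higher in 2 and lower in 5 of 16 and respiratory chain genes higher in 1 and lower in 1 of 19. Sterol synthesis genes were higher in 9 of 17 and lower in 1, with Idi1, an isomerase of the pathway, at 0.58. The integrated stress response was higher in 7 of 11, heat shock genes in 7 of 15 with 2 lower, and survival genes in 10 of 15 with 1 lower, with 7 of 8 induced survival genes kept (Bcl2a1a and Bcl2a1d at 4.39 and 4.23, near-identical paralogues whose reads may be split). DNA replication genes were higher in 1 and lower in 4 of 20.

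**Figure D5:**
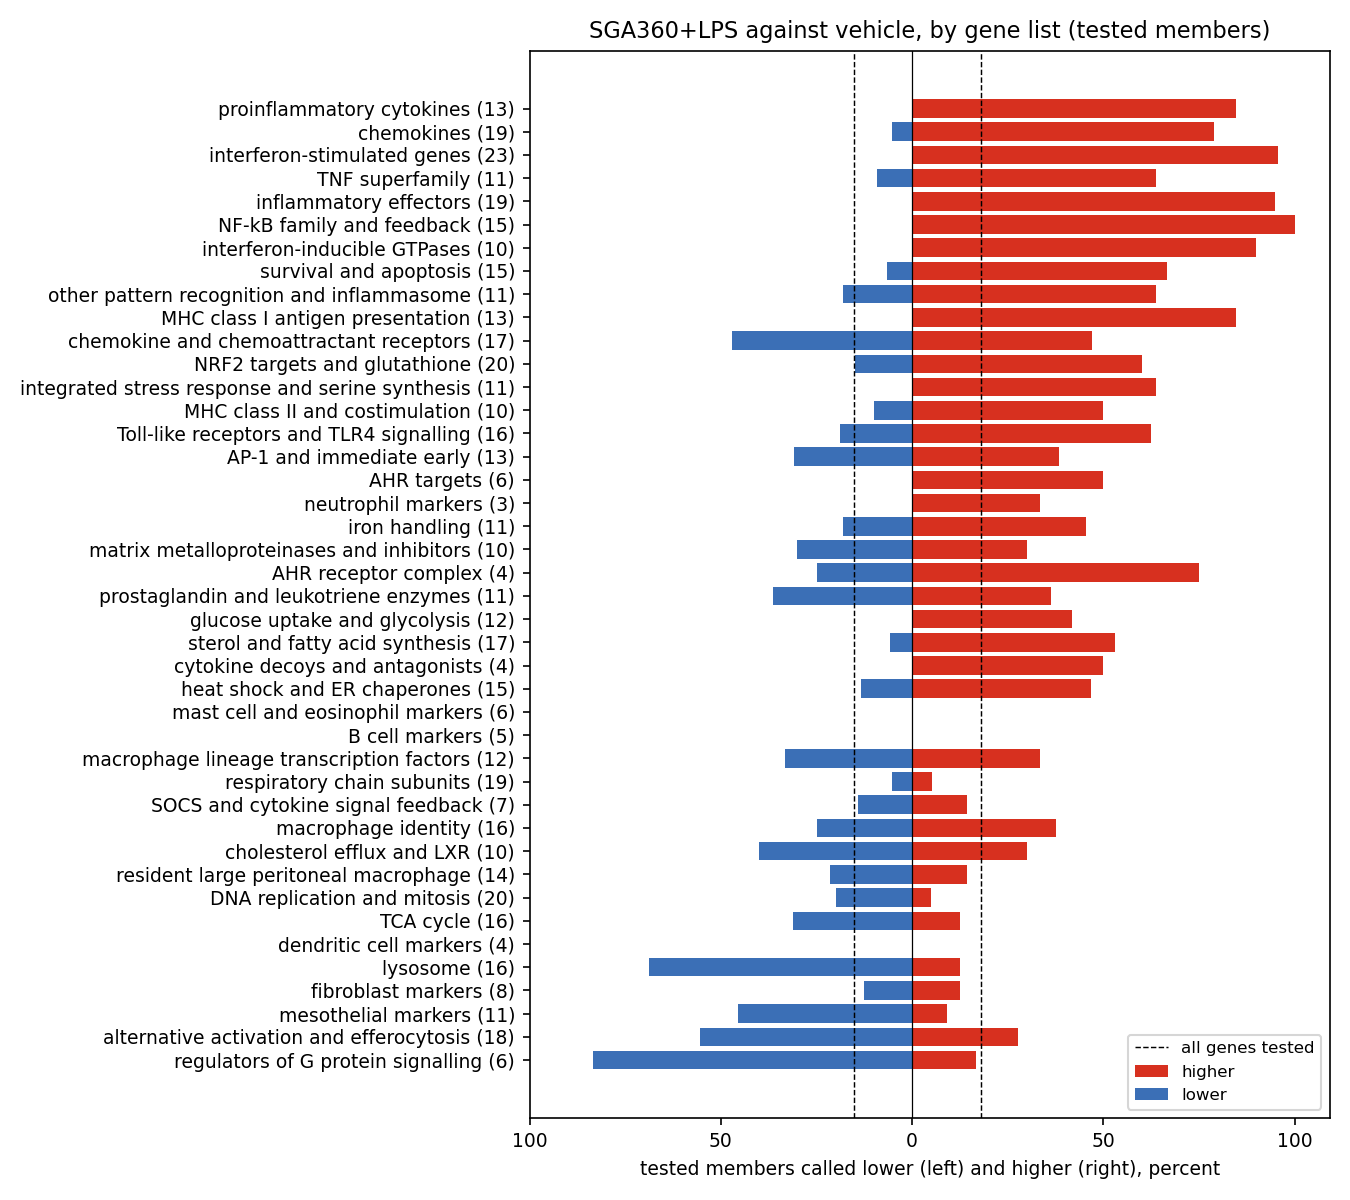
Bars show, for each list, the percent of tested members called higher (right) and lower (left) in SGA360+LPS against vehicle, with the number tested in brackets and the shares over all genes tested (17.9% and 15.2%) dashed. NF-kB, interferon-stimulated and effector genes reach furthest to the right, and regulators of G protein signalling, lysosomal and alternative activation genes furthest to the left.

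Markers of macrophages and of other cells were both present. Macrophage identity genes were high in every library (Lyz2, lysozyme, 18255 to 22238 CPM), and of 16 tested 6 were higher and 4 lower, with Adgre1, which encodes F4/80, at 1.17. Of 14 tested genes of resident large peritoneal macrophages, 2 were higher, 3 lower and 9 not called (median −0.064). Over all genes tested 17.9% were higher and 15.2% lower, so these counts do not set the list apart. The counts of the other marker lists are to be read against the same shares. The resident peritoneal factor Gata6 was lower by 0.33, Cd93 by 1.85 and Cd5l by 0.45. Cxcl13 and Prg4 were higher by 3.11 and 0.54, and DESeq2 called neither of these 2. Fibroblast markers were also abundant: Col1a1, a collagen chain, had 1735 and 2172 CPM with vehicle, 1951 and 1840 with LPS and 2253 and 2023 with SGA360+LPS, and the summed list was 4891 to 5608 CPM with vehicle, 4683 to 5018 with LPS and 5029 to 5530 with SGA360+LPS, with 1 of 8 tested higher and 1 lower. Mesothelial markers summed to 824 to 866 CPM, 813 to 868 and 878 to 895 in the same order, with 1 of 11 higher (Clu) and 5 lower (7 without vehicle replicate 1). B cell markers summed to 33.4 to 37.4 CPM with vehicle and 33.4 to 36.4 with SGA360+LPS, and mast cell and eosinophil markers to 76.4 to 81.8 and 77.3 to 87; T and NK cell markers summed to 2.08 to 4.81 CPM over all libraries, neutrophil markers to 11.7 to 20 and dendritic cell markers to 8.83 to 14.6. Listed at 0 in every library were Ly6g and S100a9 for neutrophils, Cd8a, Lck, Klrb1c and Gzma for T and NK cells, Cd79b and Ebf1 for B cells, Clec9a, Ccr7, Siglech and Clec10a for dendritic cells, Kit, Ms4a2, Siglecf and Epx for mast cells and eosinophils, Pdgfrb for fibroblasts and Gpm6a for mesothelium. Most of these have several transcript rows, as do Itgam, Cd36 and Ctss, macrophage genes that were also listed at 0. edgeR called no B cell, T and NK cell, mast cell and eosinophil or dendritic cell marker against vehicle, with Cd79a, Zbtb46 and Batf3 under an unadjusted p of 0.05. Of the neutrophil markers Camp was higher, from 0 counts with vehicle to 12 and 11 with SGA360+LPS, at least 4.26-fold against a floor of 3 counts per library. Without vehicle replicate 1, 1 dendritic cell and 2 neutrophil markers were called lower. In bulk RNA fewer cells of a type and less RNA per cell cannot be told apart, and the part of these other cells in the results was not tested.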

How the data were processed

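Raw read counts for 34751 transcript rows were deposited by the authors in 1 table. The submitters' processing notes name mm10, TopHat2 2.0.13 and HTSeq 0.5.4p3, with no role given; for strand use and the handling of shared reads, the settings were not given in the sources used here. Rows were summed to 24454 symbols. The 5639 symbols with several rows held 1.87% of counts, so their values are uncertain; 869 of them were tested. Genes passed filterByExpr (minimum count 10) of edgeR 4.0.16, were scaled by TMM and fitted with glmQLFit in R 4.3.3, with the 6 libraries in 1 model, with Benjamini-Hochberg adjustment over 9389 genes. The 95% intervals use the SE (size of the log2 change over the root of F) and the fit's total degrees of freedom. Scripts were tested on simulated data.

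The members, lists and rules were chosen with earlier results of these data known. Named by rule were the 12 largest rises and 12 largest falls, up to 4 called genes of each list, genes called between the LPS-treated groups, the 8 largest kept changes in each direction, unresolved induced genes with the lowest (6) and highest (4) differences, and 21 genes fixed whatever their result. Genes named outside it, such as Ccl4, Zbp1, Cx3cr1, Csf2, Col1a1 and Adgre1, were chosen after their values were seen. Some genes that the rule names are left out of the text. Floors of 3 counts cover counting error only. Replicates did not agree within sampling noise (mean chi-square per gene 3.98 to 41.6), so none were merged. DESeq2 1.42.0 and limma 3.58.1 served as alternatives. Promoter sequences are RefSeq's for GRCm38.p6.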

Additional observations from a re-analysis of the deposited data

How the results depend on the processing

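With SGA360+LPS against vehicle, the counts of 1678 genes higher and 1429 lower became 1531 and 1065 with DESeq2, 1723 and 1399 with limma-voom, 1962 and 1446 with no filter on low counts, 1705 and 1404 with RLE scaling, 1450 and 1198 from those 4 libraries alone, 1159 and 891 at an adjusted p under 0.01, and 359 and 180 when tested against a 2-fold change. With 1 library left out they ranged from 1100 to 2829 higher and from 731 to 2486 lower, lowest without SGA360+LPS replicate 1 and highest without vehicle replicate 2, where the lone library of a group is assumed to vary like the others. No called gene changed sign in any of these settings. The 363 induced and 195 repressed genes kept in full became 162 and 45 at a log2 margin of 0.322 and 490 and 357 at a log2 margin of 1, 374 and 213 when the programme was taken from LPS against vehicle and 356 and 181 from SGA360+LPS against vehicle. Without 1 library they ranged from 301 to 566 and from 123 to 292, and from the LPS-treated libraries alone they were 461 and 236. The 6 induced genes called between the LPS-treated groups became 10 with DESeq2, 14 with no filter, 3 at an adjusted p under 0.01, 10 from the LPS-treated libraries alone and 0 to 14 without 1 library. The repressed genes so called stayed at 0 but for 1 without vehicle replicate 1. The labels share replicate numbers, but whether these pair the libraries is not stated. The correlations of the differences between replicates were −0.0037 for vehicle and LPS, 0.0144 for vehicle and SGA360+LPS, and 0.198 for LPS and SGA360+LPS. These values do not settle whether the LPS and SGA360+LPS libraries are paired. With a replicate block the counts were 1715 higher, 1421 lower, 367 and 194 kept, and 4 called lower, with the calls of Il1b and Cxcl1 lost. Induced genes not resolved had a median level of 6.68 CPM and a median interval half-width of 0.86, against 154 CPM and 0.22 for those kept. A fit without the vehicle libraries gave 461 induced genes kept. Replicates varied most in the vehicle group (mean chi-square per gene 41.6, against 5.92 with LPS and 3.98 with SGA360+LPS). What set the interval width was not tested.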

Other observations

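Among other strongly induced genes, Tarm1, an activating receptor of myeloid cells, had 0 and 12 counts with vehicle, and 64.4 and 62.3 CPM with LPS and 54.6 and 57.6 with SGA360+LPS (log2 change 6.41, SE 0.39). The serine protease gene Htra4 had 0 and 0.416, then 15 and 13.6, then 17.8 and 16.6 CPM. The cytokine gene Tnfsf15 had 0 and 0.52, then 27.1 and 25.7, then 19.9 in both SGA360+LPS libraries. None of these 3 was resolved within 1.5-fold, and the SGA360+LPS libraries were below both LPS libraries for Tarm1 and Tnfsf15 and above both for Htra4.

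Unresolved induced genes with the lowest and highest differences from LPS alone show what was left undecided. Cd69, an early activation marker, had 2 and 12 counts with vehicle, and 21.9 and 25.8 CPM with LPS and 16.2 and 16.6 with SGA360+LPS, an interval of −1.11 to 0.03. Hdc, which makes histamine, was at −0.49 (interval −1.18 to 0.21). Arg2, the mitochondrial arginase, had 4.02 and 2.91, then 7.32 and 7.54, then 11.1 and 10.9 CPM, an interval of −0.02 to 1.14, and the zinc transporter gene Slc39a4 and the glycine transporter gene Slc6a9 were at 0.54 and 0.43. The SGA360+LPS libraries of Arg2, Slc39a4 and Slc6a9 lay above both LPS libraries, although no difference was called.

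The counts of the smaller lists against vehicle are also to be read against the 17.9% higher and 15.2% lower of all genes tested. TNF superfamily genes were higher in 7 of 11 tested and lower in 1. Iron-handling genes were higher in 5 and lower in 2 of 11, and matrix metalloproteinases and their inhibitors higher in 3 and lower in 3 of 10. The iron count includes Fth1, which has 2 transcript rows and 0 and 4 counts with vehicle, so its level is uncertain. Mmp9, a gelatinase, rose by 2.56 and Mmp14, a membrane-bound collagenase, by 1.71, both kept in full, while the inhibitor gene Timp2 fell by 0.76. Cholesterol efflux genes were higher in 3 and lower in 4 of 10, with the transporter genes Abca1 at 0.87 and Abcg1 at −0.84. Lineage transcription factors were higher in 4 and lower in 4 of 12, with Batf at 2.37 and Maf at −1.34.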
